A study of Homo sapiens with 9 samples.

Results

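The 8 AP-1 family genes JUN, JUNB, JUND, FOS, FOSB, FOSL1, FOSL2 and ATF3 were examined for binding of p65 and TEAD in 786-O cells, a human line established from a clear cell carcinoma of the kidney. A peak was assigned to a gene when its summit lay within 50 kb of the gene's start in the hg19 build. This gave 156 of the 60345 peaks in 5 lists, each list from 1 chromatin immunoprecipitation sequencing library. The p65 lists come from control cells, cells labelled siTEAD4 (siTEAD in the treatment label), vehicle-treated cells and cells treated with XMU-MP-1, and the TEAD list from XMU-MP-1 cells. The control cells have no treatment label, and the TEAD antibody's target within the family is not named. Input chromatin was sequenced for the control, siTEAD4, vehicle and XMU-MP-1 conditions and has no list here.

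p65 (RELA) is a subunit of NF-κB. TEAD proteins are the DNA-binding partners of the coactivator YAP, and XMU-MP-1 is an inhibitor of MST1 and MST2, the kinases at the head of the Hippo pathway that restrains YAP. AP-1 is a dimer of basic leucine zipper proteins, usually a Jun protein with a Fos or ATF protein. Several of its genes are immediate early genes, switched on by growth factors, cytokines and stress. AP-1 is known to occupy many enhancers together with TEAD, and it acts at many inflammatory genes beside NF-κB.

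Every difference between conditions given here compares single libraries and has no replicate check, so no p-value is given. The lists hold no read totals, so library depth was not known. The peak identifiers of the list labelled siTEAD4 carry the name p65_Vert, which no label explains, and its condition rests on the sample label alone. Gene assignment was by distance only, and other genes lie in the same intervals. In RefSeq order the protein-coding neighbours are HOOK2 and PRDX2 for JUNB, ERCC1 and RTN2 for FOSB, C11orf68 and CCDC85B for FOSL1, and BABAM2 and PLB1 for FOSL2.

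All 8 genes had p65 peaks in the control and vehicle lists and TEAD peaks, but treated p65 peaks were called only near JUNB, FOSB, FOSL1 and FOSL2. The control list held 42 peaks near the family and the vehicle list 43. The list labelled siTEAD4 held 8, the XMU-MP-1 list 10 and the TEAD list 53. The whole lists held 15465 control, 17958 vehicle, 1813 siTEAD4-labelled, 1649 XMU-MP-1 and 23460 TEAD peaks. FOSL1 had the most peaks in every list except vehicle, where it shared the highest number, 9, with FOSL2. FOS had the fewest p65 peaks, 1 in control and 1 in vehicle. Of all 100 kb bins of the genome, which are not centred on genes, 26.8% held a control peak, 29.5% a vehicle peak, 35.4% a TEAD peak, 4.72% a peak labelled siTEAD4 and 4.20% an XMU-MP-1 peak.

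**Figure D1:**
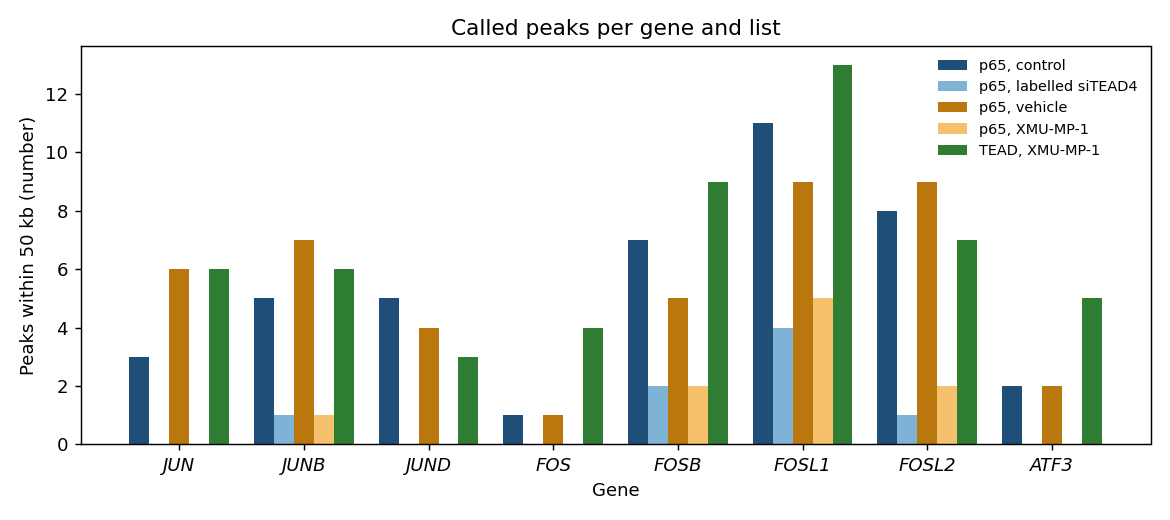
Number of called peaks with a summit within 50 kb of each AP-1 family gene start, by list (1 library each). FOSL1 has 11 control, 4 siTEAD4-labelled, 9 vehicle, 5 XMU-MP-1 and 13 TEAD peaks, and JUN, JUND, FOS and ATF3 have no bar in either treated p65 list.

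Joined where they shared at least 1 bp, the peaks formed 67 regions. Both proteins were called in 33 of them, p65 alone in 14 and TEAD alone in 20. The TEAD list is from XMU-MP-1 cells, and 10 of the 33 regions held a p65 peak from that condition. In the rest, p65 and TEAD were called in different conditions. Control and vehicle peaks were found together in 36 regions, control without vehicle in 6 and vehicle without control in 5. Fold enrichment is the authors' value for the summit over a local background, for each library separately. Its median near the family was 6.67 in control, against 5.98 over the whole control list. In the vehicle list the medians were 5.89 near the family and 5.87 overall. For TEAD they were 5.51 and 6.27, so the median TEAD peak near these genes was weaker than the median TEAD peak of the list.

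**Figure D2:**
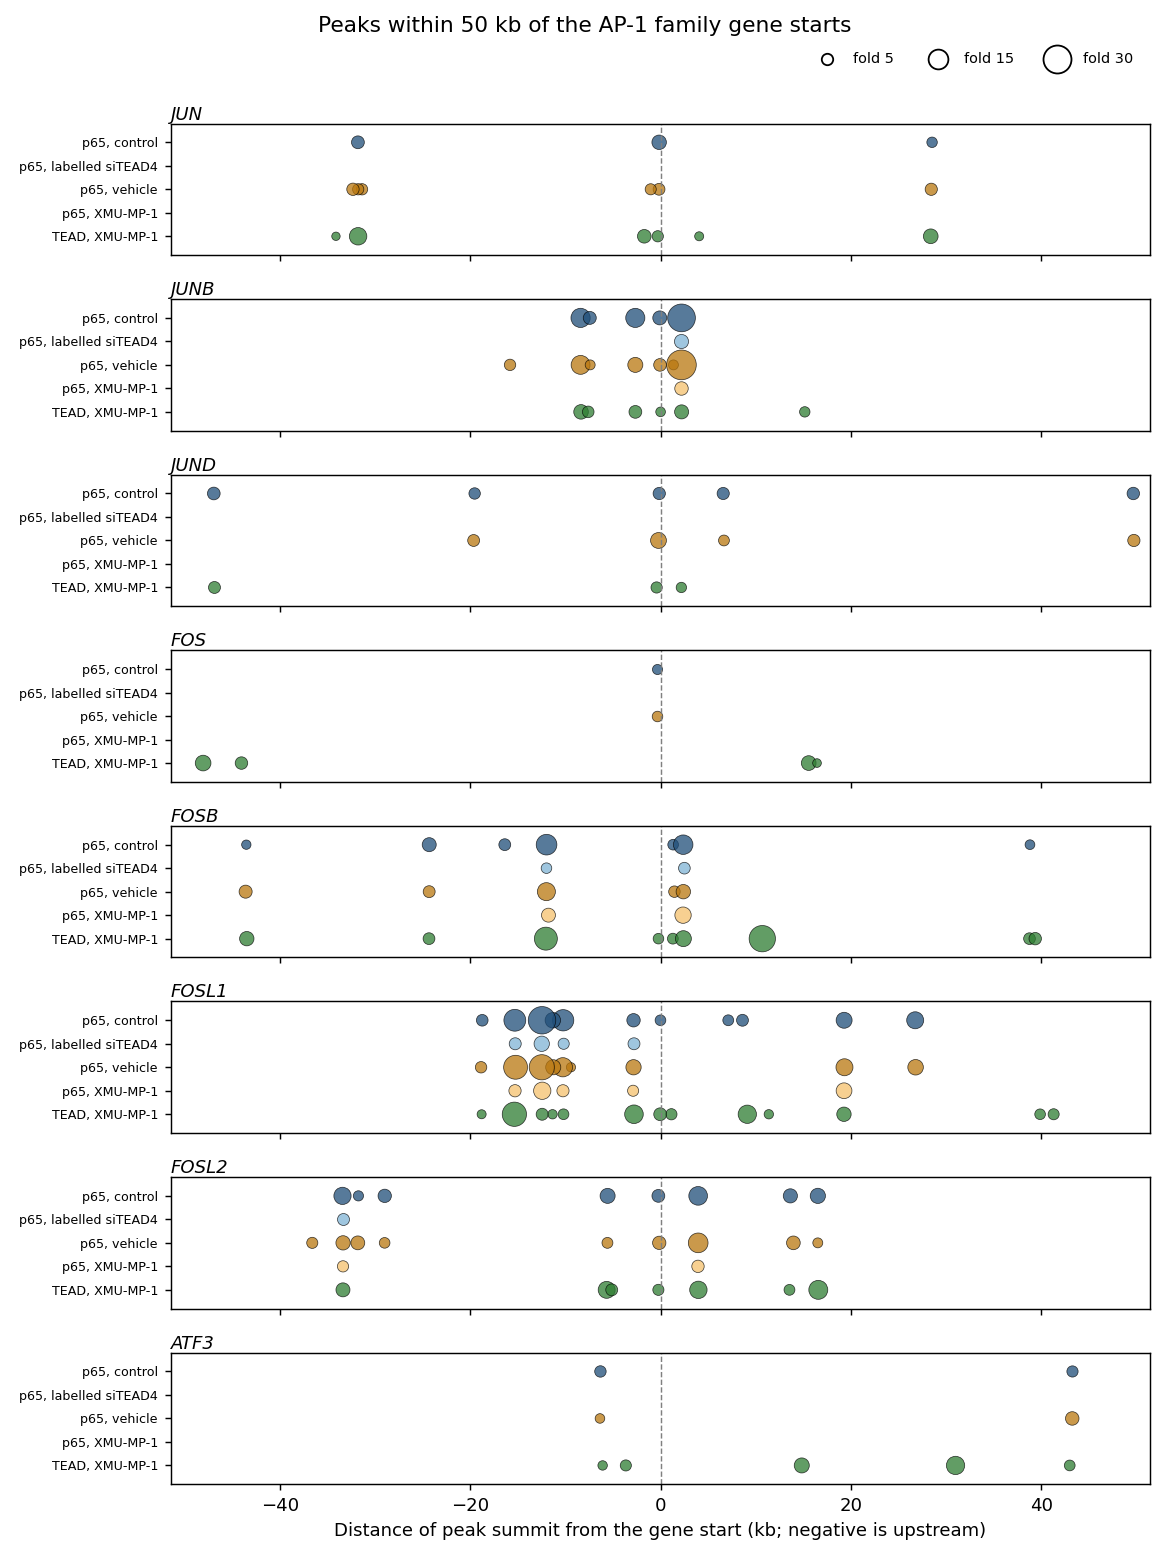
Position of each peak summit relative to the gene start (x axis, kb, upstream negative) in the 5 lists (rows), with circle area proportional to the deposited fold enrichment. Treated p65 peaks sit at positions where control and vehicle p65 peaks are also drawn, and the largest TEAD circle, at FOSB, has no p65 circle above it.

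JUN encodes c-Jun, the founding AP-1 subunit, which binds its own promoter through an AP-1-like site. It had 3 control, 6 vehicle and 6 TEAD peaks and none in either treated p65 list. The start itself was occupied. The control summit lay 146 bp upstream with a fold of 8.06, the vehicle summit 158 bp upstream with a fold of 5.37, and the TEAD summit 290 bp upstream with a fold of 4.88. The 250 bases before the JUN start are shown because these peaks lie over or beside it (RefSeq, GRCh38.p14, minus strand, chr1:58784048-58784297), with the AP-1-like match TGACATCA in capitals.
JUN: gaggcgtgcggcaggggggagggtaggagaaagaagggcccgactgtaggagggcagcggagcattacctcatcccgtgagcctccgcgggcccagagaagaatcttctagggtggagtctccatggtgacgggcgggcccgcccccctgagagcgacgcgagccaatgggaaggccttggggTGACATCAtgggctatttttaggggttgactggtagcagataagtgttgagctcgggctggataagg
The match begins 67 bases before the start. The starts of the 2 builds were not aligned, so the place of the summits within this sequence is approximate.

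The strongest JUN region was a TEAD site 31.8 kb upstream, with a TEAD fold of 11.7. The control list had 1 p65 peak there, with a fold of 6.33, and the vehicle list had 3, with folds of 4.87 to 5.89. A region 28.4 to 28.5 kb downstream was also called for both proteins, with folds of 4.21 in control, 5.73 in vehicle and 8.32 for TEAD. The best-placed p65 peak at JUN, the control peak at the start, ranked 4106 of 15465.

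JUNB encodes a Jun protein that is often induced with the NF-κB response. It had 5 control and 7 vehicle p65 peaks, 6 TEAD peaks and 1 peak in each treated p65 list. Its main site lay about 2.2 kb downstream of the start, on chromosome 19 from 12904064 to 12904996. The fold there was 29.5 in control, rank 41 of 15465, and 33.8 in vehicle, rank 43 of 17958. It was the strongest p65 peak near any of the 8 genes in both reference lists. In the list labelled siTEAD4 the fold was 7.66 (rank 351 of 1813), in the XMU-MP-1 list 6.97 (rank 580 of 1649), and for TEAD 7.59. The summits of the 5 lists lay between 2120 and 2215 bp downstream. Ranks from lists of such different length show no change at the site.

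JUNB also carried strong p65 peaks with no treated peak. The region 8.41 kb upstream had folds of 14.2 in control and 13.7 in vehicle, the strongest p65 region near the family that neither treated list held, beside a TEAD fold of 8.16. The region 2.65 kb upstream had folds of 14.0 in control and 8.68 in vehicle, and a TEAD fold of 6.29. At the start, p65 summits lay 81 bp upstream in control (fold 7.51) and 54 bp upstream in vehicle (6.17), and the TEAD summit 5 bp downstream (3.59). The 250 bases before the start are shown for comparison with JUN (RefSeq, GRCh38.p14, plus strand, chr19:12791236-12791485), and hold none of the motifs searched.
JUNB: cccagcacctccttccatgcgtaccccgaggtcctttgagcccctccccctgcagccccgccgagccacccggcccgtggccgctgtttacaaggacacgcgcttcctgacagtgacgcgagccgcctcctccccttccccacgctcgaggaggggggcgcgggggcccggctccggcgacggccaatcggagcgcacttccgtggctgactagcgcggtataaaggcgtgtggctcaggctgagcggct

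JUND, a broadly expressed Jun protein, had 5 control, 4 vehicle and 3 TEAD peaks and no treated p65 peak. Its p65 folds were 5.03 to 6.20 in control and 4.53 to 9.63 in vehicle. The highest, 9.63, rank 3204 of 17958, was at the start, where the vehicle summit lay 215 bp and the control summit 136 bp upstream (control fold 5.80). TEAD was called 413 bp upstream with a fold of 4.86. The 250 bases before the start are shown because p65 was called there, while the TEAD peak lay further upstream (RefSeq, GRCh38.p14, minus strand, chr19:18281623-18281872), with matches to TGANNTCA in capitals, TGACGTCA being the cAMP response element.
JUND: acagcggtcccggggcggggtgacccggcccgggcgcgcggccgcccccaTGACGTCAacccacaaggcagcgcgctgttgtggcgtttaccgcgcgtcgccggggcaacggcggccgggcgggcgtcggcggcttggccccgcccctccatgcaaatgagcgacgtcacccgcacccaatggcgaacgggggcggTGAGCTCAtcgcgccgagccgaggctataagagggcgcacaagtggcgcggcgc

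FOS encodes c-Fos, the immediate early partner of c-Jun. Its only p65 region lay at the promoter, with summits 341 bp upstream in control (fold 3.96) and 383 bp upstream in vehicle (4.30). These folds ranked 13937 of 15465 and 15175 of 17958, so both peaks were among the weaker ones of their lists. The 4 TEAD peaks lay elsewhere, 48.1 and 44.1 kb upstream (folds 9.45 and 6.01) and 15.6 and 16.4 kb downstream (8.34 and 2.91). FOS was the only 1 of the 8 genes with no region shared by p65 and TEAD.

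FOSB, which encodes another immediate early Fos protein, had 7 control, 5 vehicle and 9 TEAD peaks and 2 peaks in each treated p65 list. Both of these regions were called in all 5 lists. The first lay 11.8 to 12.1 kb upstream, on chromosome 19 from 45958886 to 45959968. Its folds were 16.4 in control, 4.29 in the list labelled siTEAD4, 12.5 in vehicle, 7.47 in XMU-MP-1 and 20.2 for TEAD. The next lay about 2.4 kb downstream of the start, from 45973333 to 45973991, with folds of 14.6 in control, 5.26 in the list labelled siTEAD4, 7.99 in vehicle, 10.3 in XMU-MP-1 and 9.79 for TEAD. At this site the XMU-MP-1 fold ranked 179 of 1649 and the vehicle fold 4788 of 17958. Here too, ranks from lists of such different length show no change at the site. It was the 1 region of 10 in which the XMU-MP-1 fold was numerically above the vehicle fold. Over the whole lists 91.4% of XMU-MP-1 peaks with a vehicle peak had the lower fold, so 1 such region of 10 is near the background.

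FOSB also had the strongest TEAD peak near the family. It lay 10.7 kb downstream, between 45981209 and 45982336 of chromosome 19, and had a TEAD fold of 26.6, rank 546 of 23460. No p65 list held a peak there. Within 1 kb of the FOSB start only TEAD was called, 218 bp upstream with a fold of 4.32. The remaining FOSB regions had p65 folds of 3.37 to 7.56 in control and 5.08 to 6.54 in vehicle.

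FOSL1 encodes Fra-1, a Fos protein raised in many carcinomas. It had 11 control, 9 vehicle and 13 TEAD peaks, with 5 peaks under XMU-MP-1 and 4 in the list labelled siTEAD4. FOSL1 had the highest numbers of the 8 genes, tied with FOSL2 in vehicle. The bins set beside it are not centred on genes, so their shares do not show how unusual it is among genes. Bins with at least as many peaks made up 0.0485% of all 100 kb bins for control, 0.171% for vehicle, 0.0582% for the list labelled siTEAD4, 0.0259% for XMU-MP-1 and 0.0647% for TEAD. Much of this lay in a cluster 10.2 to 18.9 kb upstream, where 5 regions were called in control, vehicle and TEAD. The strongest of them, on chromosome 11 from 65680196 to 65680789 (12.5 kb upstream), had folds of 28.9 in control (rank 50), 24.3 in vehicle (rank 186), 9.001 in the list labelled siTEAD4 and 11.5 in XMU-MP-1. These were also the highest folds of both treated lists near the family, although the TEAD fold at that site was only 5.51.

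The neighbouring region, from 65682762 to 65683682 (15.3 kb upstream), had the highest TEAD fold at FOSL1, 22.6. Its p65 folds were 18.3 in control, 21.9 in vehicle, 5.54 in the list labelled siTEAD4 and 5.78 in XMU-MP-1. Another region of the cluster, 10.2 kb upstream, had folds of 17.4, 14.2, 4.78 and 5.68 in the same order and a TEAD fold of 4.44. The other regions of the cluster, 11.3 and 18.7 kb upstream, had control folds of 9.20 and 5.23 and no treated peak. High and low TEAD folds were thus found beside p65 peaks called in all 4 lists.

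Nearer the FOSL1 start, the region 2.84 kb upstream was called in all 5 lists although its p65 folds were modest, 6.89 in control and 8.96 in vehicle. They were 5.49 in the list labelled siTEAD4 and 4.73 in XMU-MP-1, beside a TEAD fold of 13.3. The region 19.3 kb downstream was held by the XMU-MP-1 list (fold 9.55), control (9.78), vehicle (11.1) and TEAD (7.94), but not by the list labelled siTEAD4. The region 26.8 kb downstream, with folds of 11.1 in control and 9.27 in vehicle, was in no treated list and had no TEAD peak. At the start itself a control peak 8 bp upstream (4.40) and a TEAD peak 38 bp upstream (6.33) were called, with no vehicle peak.

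FOSL2 encodes Fra-2. It had 8 control, 9 vehicle and 7 TEAD peaks, with 2 peaks under XMU-MP-1 and 1 in the list labelled siTEAD4. The region 33.4 kb upstream was called in all 5 lists, with folds of 11.4 in control, 5.53 in the list labelled siTEAD4, 7.87 in vehicle, 4.86 in XMU-MP-1 and 7.53 for TEAD. The strongest p65 region at FOSL2 was 3.95 kb downstream, with folds of 13.4 in control, 14.9 in vehicle, 5.89 in XMU-MP-1 and 11.6 for TEAD, and no peak labelled siTEAD4. The highest TEAD fold at FOSL2, 13.8, lay 16.6 kb downstream, beside p65 folds of 8.89 in control and 3.802 in vehicle. At the start, summits lay 229 bp upstream in control (6.32), 137 bp upstream in vehicle (6.81) and 227 bp upstream for TEAD (4.77).

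Of the 7 members whose promoters could be searched, only FOSL2 held the AP-1 motif TGANTCA, beginning 5 bases after the start (RefSeq, GRCh38.p14, plus strand). The site is shown with 9 bases on each side and the motif in capitals.
FOSL2: ccattgtagTGACTCAtctcgggca
The promoter table gives 300 bases for each entry, 250 before and 50 after a start, and matched 7 of the 8 genes in 8 entries, all but FOSL1. TGANTCA, searched on both strands, was found in 7.71% of all 35116 promoters. TGANNTCA was added after the sequences were seen. It was found at JUN, JUND and ATF3 and in 11.5% of all promoters, and overlaps no TGANTCA match in these genes. The TEAD motif GGAATG (14.0% of promoters) and the NF-κB consensus (5.91%) had no match in these windows.

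ATF3 encodes a stress-induced basic leucine zipper protein that often represses transcription. It had 2 control, 2 vehicle and 5 TEAD peaks and no treated p65 peak. The p65 folds were 5.05 in control and 3.55 in vehicle 6.3 to 6.4 kb upstream, and 4.85 and 7.02 at 43.3 kb downstream, both beside TEAD peaks. The TEAD peaks 14.8 and 31.0 kb downstream were stronger, with folds of 8.71 and 12.9, and had no p65 peak. These distances are from 1 start. ATF3 has another promoter entry downstream of it, and whether any region lies at another start was not tested. The interval ended just short of stronger sites. At 51.2 and 52.0 kb upstream of ATF3 the TEAD folds were 25.3 and 36.8, and p65 was called 51.2 kb upstream with folds of 11.1 in control and 12.6 in vehicle. Over all genes the 5 peaks more than 45 kb but within 50 kb from a start had folds of 5.52 to 9.45, and the 19 peaks up to 10 kb beyond the limit had folds of 3.30 to 36.8.

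The first comparison asks how p65 binding at these genes differed with siRNA against TEAD. Of the 42 control peaks, 8 (19.0%, exact 95% interval 8.60 to 34.1) had a peak in the list labelled siTEAD4. Over the whole control list the share was 11.2%, and 17.2% when each peak near the family was given the share of its own decile of control fold. The 8 peaks had a median control fold of 16.9 and the other 34 a median of 6.08, against 12.7 and 5.72 over the whole list. In the strongest decile of control fold, 6 of 9 peaks near the family were kept, against 57.5% over the whole decile. The interval, which covers the counting of peaks only, includes both shares of the list.

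The second comparison asks the same of XMU-MP-1. Of the 43 vehicle peaks, 10 (23.3%, exact 95% interval 11.8 to 38.6) had an XMU-MP-1 peak, against 8.77% over the whole vehicle list. At equal deciles of vehicle fold the list's share was 11.2%, below the lower bound of the interval. Of the 10, 5 lay at FOSL1, which held 9 of the 43 vehicle peaks, and peaks at 1 gene may not be independent. The share without FOSL1 was not computed, so the bound does not show an excess across the family. In the strongest decile of vehicle fold, 6 of 7 peaks near the family were kept, against 46.6% of that decile. The median vehicle fold of the 10 was 13.3 and that of the other 33 was 5.37. With peaks limited to a −log10 q of at least 10 in every list, 7 of 20 vehicle peaks (35.0%) were kept, against 10.3% of the whole list. The share was 20.9% (10.0 to 36.0) with overlap by summits within 200 bp, against 8.41% of the whole list. It was 18.9% (10.7 to 29.7) with an interval of 100 kb, against 8.77%. Both intervals reach below 11.2%, but that share at equal deciles was not recomputed for these settings.

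All 8 regions with a peak labelled siTEAD4 also had an XMU-MP-1 peak, a control, a vehicle and a TEAD peak. Over the whole lists 66.0% of peaks labelled siTEAD4 had an XMU-MP-1 peak, and with 8 peaks the lower bound of the exact interval, 63.1%, lies below this share. Of the 10 XMU-MP-1 peaks, 8 had a peak labelled siTEAD4, against 72.3% of that list. The other 2 regions were those at FOSL1, 19.3 kb downstream, and at FOSL2, 3.95 kb downstream. No treated p65 peak near the family lay outside a region that was called in both the control and the vehicle list. Over the whole lists 96.3% of peaks labelled siTEAD4 had a control peak and 95.7% of XMU-MP-1 peaks a vehicle peak.

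**Figure D3:**
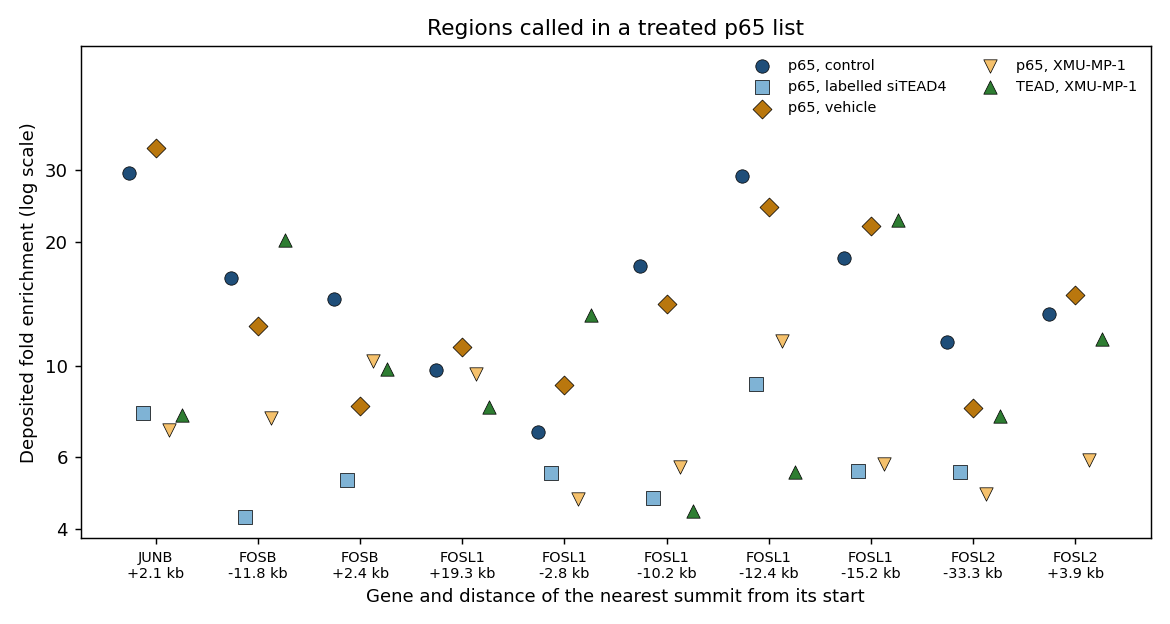
Deposited fold enrichment (log axis) in each of the 5 lists for the 10 regions near AP-1 family genes that a treated p65 list held, labelled by gene and distance of the nearest summit from the start. The siTEAD4-labelled values, 4.29 to 9.001, are below the control values of the same 8 regions, and TEAD values range from 4.44 to 22.6.

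Folds from different libraries are set side by side here and cannot show whether occupancy changed. In the 10 regions the control folds were 6.89 to 29.5 and the vehicle folds 7.87 to 33.8. The siTEAD4-labelled folds were 4.29 to 9.001 and the XMU-MP-1 folds 4.73 to 11.5. The siTEAD4-labelled value was the lower in 8 of 8 regions and the XMU-MP-1 value in 9 of 10, the exception being FOSB at 2.4 kb downstream. This is near the background, since 94.4% of all peaks labelled siTEAD4 with a control peak and 91.4% of all XMU-MP-1 peaks with a vehicle peak had the lower fold. The part of library depth in these differences was not tested.

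The 4 genes without a treated peak, JUN, JUND, FOS and ATF3, held 11 of the 42 control and 13 of the 43 vehicle peaks. Over the whole lists 11.2% of control and 8.77% of vehicle peaks were kept, so none kept among so few is near the background. The regions of the 4 genes had control folds of 3.96 to 8.06 and vehicle folds of 3.55 to 9.63. All but 1 of the regions kept in the list labelled siTEAD4 had control folds above 11, the exception being FOSL1 at 2.84 kb upstream. Control folds above 11 were also found without a siTEAD4-labelled peak, at JUNB (14.2 and 14.0), FOSL2 (13.4) and FOSL1 (11.1). The 4 genes also held 18 of the 53 TEAD peaks, with folds of 2.72 to 12.9.

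**Figure D4:**
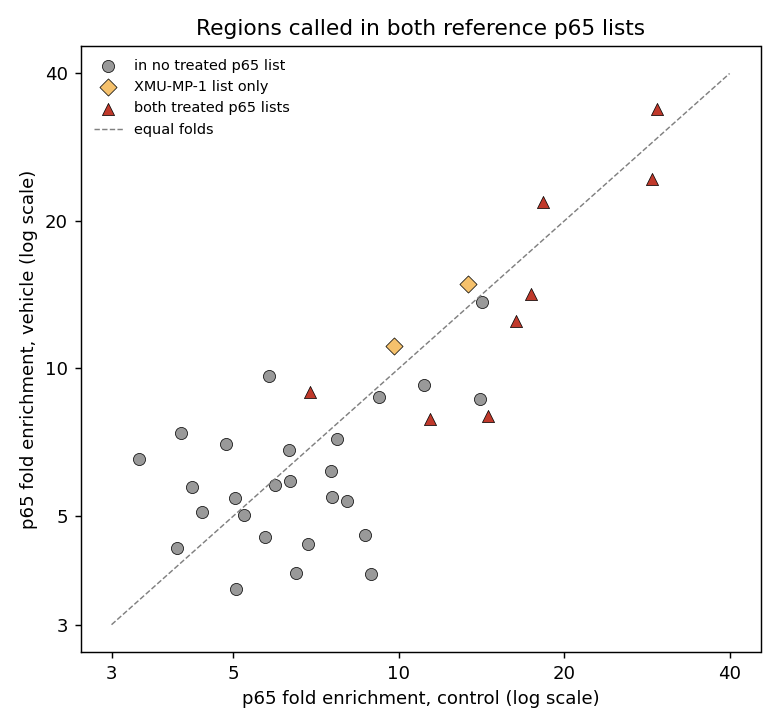
Fold enrichment of p65 in the control (x axis) and vehicle (y axis) lists, both on log axes, for the 36 regions near AP-1 family genes called in both. Triangles mark the 8 regions called in both treated p65 lists, diamonds the 2 called in the XMU-MP-1 list only and circles the rest, and the dashed line marks equal folds.

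The reference lists coincided at most of these sites. Of the 42 control peaks, 36 (85.7%, exact 95% interval 71.5 to 94.6) had a vehicle peak, against 79.5% over the whole list. Of the 43 vehicle peaks, 37 (86.0%, 72.1 to 94.7) had a control peak, against 68.5%. The control fold was the higher in 22 of the 36 shared regions and the vehicle fold in 14. At a −log10 q of at least 10 the order turned for the control peaks, with 16 of 22 (72.7%) near the family and 80.9% of the whole list. Without that limit, control peaks with no vehicle peak had folds of at most 6.20.

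The third comparison asks how p65 and TEAD coincided. TEAD was mapped only in XMU-MP-1 cells, so only the XMU-MP-1 p65 list shares its condition. Of the 42 control peaks, 33 (78.6%, exact 95% interval 63.2 to 89.7) had a TEAD peak, against 47.4% of the whole list. Of the 43 vehicle peaks, 30 (69.8%, 53.9 to 82.8) had 1, against 45.6%. Peaks at 1 gene may not be independent, and 9 of the 33 regions shared by p65 and TEAD lay at FOSL1. All 10 XMU-MP-1 peaks and all 8 peaks labelled siTEAD4 had a TEAD peak, against 75.2% and 71.6% of those lists. With 10 and 8 peaks, the lower bounds of the exact intervals were 69.2% and 63.1%, below the shares of the whole lists. With the q limit of 10 just given, 9 of 20 vehicle peaks (45%, exact 95% interval 23.1 to 68.5) had a TEAD peak. The share of the whole list, 31.0%, lies inside that interval. The strongest p65 region without TEAD was the FOSL1 site 26.8 kb downstream.

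In the other direction, 28 of the 53 TEAD peaks near the family (52.8%, 38.6 to 66.7) had a vehicle p65 peak, against 34.5% of all TEAD peaks, and 33 (62.3%, 47.9 to 75.2) had a control peak, against 30.9%. An XMU-MP-1 p65 peak was found at 10 of the 53 (18.9%, 9.44 to 31.97), against 5.26%. These are the same 10 regions as in the comparisons above, 5 of them at FOSL1, so this share is not a separate result. TEAD peaks with an XMU-MP-1 p65 peak had a median TEAD fold of 8.87 and the others 5.21, beside 10.1 and 6.23 over the whole list. Where p65 and TEAD peaks overlapped, the nearest summits lay 59 bp apart at the median for vehicle and 48 bp for control, against 60 and 56 bp over the whole lists.

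Only 1 start per gene was used, and ATF3 has more than 1 entry in the promoter table. Within 1 kb of a start, control peaks were called at 6 genes (JUN, JUNB, JUND, FOS, FOSL1 and FOSL2), vehicle peaks at 5 of these (not FOSL1), and TEAD peaks at 6 (JUN, JUNB, JUND, FOSB, FOSL1 and FOSL2). The p65 folds there were 3.96 to 8.06 in control and 4.30 to 9.63 in vehicle, and neither treated list held a peak. At the shares kept over the whole lists, 0.674 of the 6 control and 0.439 of the 5 vehicle peaks would be kept, so the absence of treated peaks at starts is near the background.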

How the data were processed

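Peak lists of 5 libraries, 1 per condition, were used as deposited. Reads were handled with fastp and Bowtie2 2.4.5 and peaks called with MACS2 on hg19, per the submitters' processing notes. The sources used here give neither the MACS2 settings nor the input behind a list. The deposited columns are a fold enrichment over local background (a ratio), the −log10 of p and of q (the authors' p-value and its adjusted q-value), the summit position and a whole-number score that was not used here.

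The 8 genes and their hg19 positions were given, and members, intervals and motifs were chosen with earlier results of these data known. Regions named were, per gene, those with the highest p65 or TEAD fold, those nearest the start and those called in a treated p65 list; the others named were chosen after their values were seen. Peaks were called overlapping when they shared at least 1 bp. Shares have exact (Clopper-Pearson) 95% intervals, which treat peaks as independent although peaks at 1 gene may not be. Strand came from the RefSeq promoter table (GRCh38.p14) and, for FOSL1, from general knowledge. A list of other AP-1 pathway genes was planned but not used, because hg19 positions for them were not used here. Overlap and joining were tested on simulated peaks. Python 3.11.15, numpy 2.4.6, pandas 2.3.3 and scipy 1.17.1 were used.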

Additional observations from a re-analysis of the deposited data

How the results depend on the processing

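Alternatives were intervals of 25 and 100 kb, −log10 q limits of 5 and 10 in every list, and overlap by 50% of the shorter peak or by summits within 200 bp. Recomputing gave 54 values. Shares inside the reported 95% interval and numbers inside 1.5 times the reported one made up 43 of them, and 11 moved further. With an interval of 100 kb there were 103 regions, 68 control, 74 vehicle and 14 siTEAD4-labelled peaks; a wider interval holds more peaks by construction. At a −log10 q of at least 5 the TEAD peaks numbered 35. At 10 there were 36 regions, 22 control, 20 vehicle, 4 siTEAD4-labelled and 21 TEAD peaks, and the share of vehicle peaks with a TEAD peak was 45%; these limits drop weaker peaks from every list. The share of vehicle peaks kept in the XMU-MP-1 list was lowest with an interval of 100 kb, 18.9%, and highest at a −log10 q of at least 10, 35.0%. No paired analysis was possible because there is a single library for each condition.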
